A study of Homo sapiens with 10 samples.

Results

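Dense clusters of FAIRE peaks are stretches of the genome where peaks of open chromatin follow each other closely. The peaks deposited for the breast cancer line MDAMB231 on chromosomes 1 to 22 were sorted, neighbours with a gap of 3000 bp or less (next start minus previous end) were joined, and groups of 4 or more peaks were kept. This gave 420 dense clusters out of 35570 groups and lone peaks, and they held 1887 of the 44702 FAIRE peaks, or 4.22% (95% Wilson interval 4.04 to 4.41%). The clusters were selected on the positions of the FAIRE peaks themselves, so their numbers of peaks, spans and heights are given as a description. The other regions comprised 6407 groups of 2 or 3 peaks and 28743 lone peaks.

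MDAMB231 is an established triple-negative breast cancer cell line, grown here without treatment. The study profiled it by FAIRE-seq (2 libraries and 1 input) and by ChIP-seq of H3K4me1, H3K4me3 and H3K27Ac (2 libraries each and 1 input). The deposited files hold 1 peak list per assay, which does not separate the 2 libraries, so no value below has a replicate error. Depth cannot be read from these lists, and the intervals cover counting error over loci only.

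FAIRE recovers DNA that is not crosslinked to nucleosomes, and its peaks mark nucleosome-depleted regulatory elements. H3K4me3 is typical of active promoters, H3K4me1 of enhancers, and H3K27Ac of active elements of either kind. Runs of closely spaced accessible sites under broad H3K27Ac are a known feature of genes that are strongly regulated in a cell type.

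The sequences below show the tallest FAIRE peak of 5 clusters that recur in the results, as the 300 bases at its middle on the plus strand of GRCh37/hg19. Capitals mark matches to the AP-1 motif TGANTCA, which reads the same on both strands. The UQCC1 peak is the tallest in any cluster and lies at chr20:33893473-33893772 in an intron. The chromosome 14 peak at chr14:62029609-62029908 is in an intron of ENSG00000258989, and the MIR100HG peak at chr11:122067770-122068069 is in an intron of that long noncoding RNA (lncRNA) gene. The MYOF peak at chr10:95219239-95219538 is intronic, and the MT2A peak at chr16:56641190-56641489 lies outside coding and lncRNA genes, 1156 bp from the nearest coding start.
UQCC1: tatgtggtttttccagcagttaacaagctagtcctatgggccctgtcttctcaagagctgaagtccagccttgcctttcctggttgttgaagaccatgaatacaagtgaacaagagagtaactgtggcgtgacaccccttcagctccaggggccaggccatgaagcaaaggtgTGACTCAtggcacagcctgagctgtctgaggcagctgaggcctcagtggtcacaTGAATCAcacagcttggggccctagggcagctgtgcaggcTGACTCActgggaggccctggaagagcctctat
Chromosome 14: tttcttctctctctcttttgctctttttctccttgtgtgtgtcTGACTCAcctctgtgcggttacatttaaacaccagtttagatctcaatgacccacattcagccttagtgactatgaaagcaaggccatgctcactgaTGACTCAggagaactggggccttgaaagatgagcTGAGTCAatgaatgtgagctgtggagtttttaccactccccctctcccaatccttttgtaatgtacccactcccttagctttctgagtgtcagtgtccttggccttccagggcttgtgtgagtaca
MIR100HG: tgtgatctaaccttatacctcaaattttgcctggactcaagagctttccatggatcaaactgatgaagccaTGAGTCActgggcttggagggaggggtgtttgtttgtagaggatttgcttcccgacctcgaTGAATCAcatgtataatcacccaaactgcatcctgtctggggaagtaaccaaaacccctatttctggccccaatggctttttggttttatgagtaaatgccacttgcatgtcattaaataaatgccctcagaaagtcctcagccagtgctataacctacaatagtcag
MYOF: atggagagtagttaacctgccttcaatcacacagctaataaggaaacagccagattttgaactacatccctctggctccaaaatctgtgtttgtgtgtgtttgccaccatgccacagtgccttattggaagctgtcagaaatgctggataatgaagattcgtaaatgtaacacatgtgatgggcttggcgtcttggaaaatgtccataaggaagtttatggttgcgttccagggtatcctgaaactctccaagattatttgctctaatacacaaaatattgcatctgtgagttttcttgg
MT2A: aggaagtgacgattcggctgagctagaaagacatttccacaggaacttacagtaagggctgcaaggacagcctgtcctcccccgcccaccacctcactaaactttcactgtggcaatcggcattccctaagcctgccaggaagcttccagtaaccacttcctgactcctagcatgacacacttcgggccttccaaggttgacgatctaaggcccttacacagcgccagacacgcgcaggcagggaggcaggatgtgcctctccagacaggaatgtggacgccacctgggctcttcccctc
The first 2 windows hold 3 matches each, the MIR100HG window 2, and the MYOF and MT2A windows 0. These 5 do not stand for the rest, since 37.1% of clustered and 39.2% of all FAIRE windows hold any match. A match is a description of the letters and says nothing of whether a factor was bound there.

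The clusters spanned 2300 to 19550 bp, with a median of 6886 bp, and together covered 3076 kb. Of these, 295 held 4 peaks, 78 held 5, 29 held 6, and 18 held 7 to 10. Peaks filled a median of 58.7% of the span. The deposited height of the tallest peak ran from 45 to 217 with a median of 107, and it was 1.5 times the cluster's own median height at the middle cluster. Clustered peaks had a median height of 68.6, against 61.9 for all peaks and 60.2 for lone ones. Their tallest member was an inner peak in 225 clusters, or 53.6%, where 55.5% of clustered peaks were inner, so the tallest peak was not placed inside more often than any other.

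**Figure D1:**
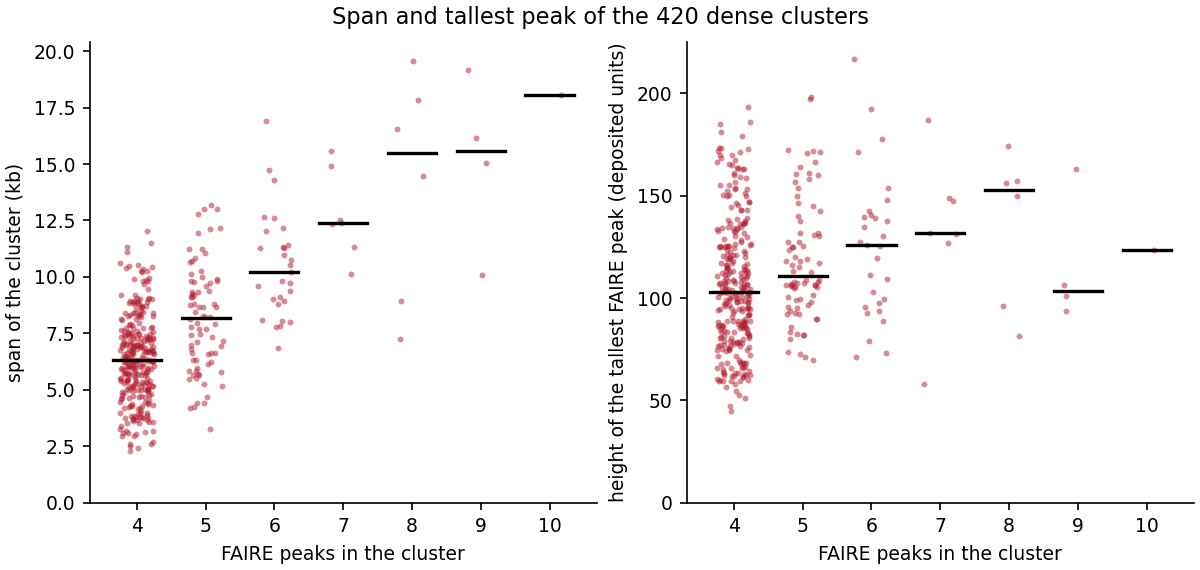
Each point is 1 of the 420 dense clusters, placed by its number of FAIRE peaks (horizontal, with small random offsets) and by its span in kb (left) or the deposited height of its tallest peak (right). Black bars are medians. The median span rose from 6333 bp with 4 peaks to 15508 bp with 8, while the tallest peaks of clusters with 4 peaks ran from 45 to 193.

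The selection leaned on how the peak caller split broad signal. Among the 1467 gaps inside dense clusters, 594 (40.5%) were at 0 or below, which means that 1 stretch of signal had been divided into abutting peaks, and 344 of the 420 clusters held such a pair. The share was 39.6% inside groups of 2 or 3. When abutting peaks were merged before joining, 129 clusters were left. Just outside the threshold, the 1258 groups of 3 peaks had a median span of 4543 bp and a median peak height of 66.4, against 6333 bp and 67.7 for the 295 clusters of 4. A further FAIRE peak lay within 6000 bp of 330 of the groups of 3 (26.2%) and of 74 of the clusters of 4 (25.1%).

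The cluster with the most peaks, 10 over 18060 bp, was at CLIP4 (chr2:29329324-29347383), which encodes a protein with microtubule-binding CAP-Gly domains. Its heights ran from 33.4 to 124, the tallest peak being the third from the left, and the 4 peaks from the sixth to the ninth carried H3K4me3. H3K27Ac covered 100% of the span and H3K4me1 93.9%. At PHLDA1, a growth-factor-induced gene with a pleckstrin homology-like domain, 8 peaks spread over 16530 bp (chr12:76409299-76425828). The peak at the PHLDA1 start had a height of 60.9, and the tallest, at 157, lay downstream of the gene and outside H3K4me3. At MT2A, which encodes a metal-binding metallothionein, 9 peaks lay within 10068 bp (chr16:56639815-56649882) and 8 of them carried H3K4me3. ARL6IP5, which encodes a membrane protein of the endoplasmic reticulum, had 8 peaks over 8923 bp (chr3:69130971-69139893), 5 of them with H3K4me3.

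The other clusters of 8 or 9 peaks had no coding start inside. MYOF, which encodes the membrane-repair protein myoferlin, held 8 peaks over 17851 bp in its introns (chr10:95218295-95236145), with heights from 63.2 to 174. A single H3K27Ac peak of 30788 bp covered all 8, and the H3K4me1 and H3K4me3 lists had no peak there. DGKD, a diacylglycerol kinase gene, held 8 peaks over 14487 bp (chr2:234321596-234336082) with the tallest at 81.3, on a chromosome whose FAIRE peaks had a median height of 48.7. In lncRNA genes, 9 peaks lay at LINC-PINT and LINC00513 (chr7:130570754-130589936), 161378 bp from the nearest coding start, that of the transcription factor gene KLF14. A further 9 lay at LINC02694 (chr15:39416851-39432985), 448362 bp from the start of THBS1, which encodes the matrix protein thrombospondin. The chromosome 14 cluster (chr14:62028186-62043212) had 9 peaks, 5 of which held AP-1 matches in their middle windows. Over all FAIRE peaks 39.2% of such windows held a match, and over clustered peaks 37.1%.

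**Figure D2:**
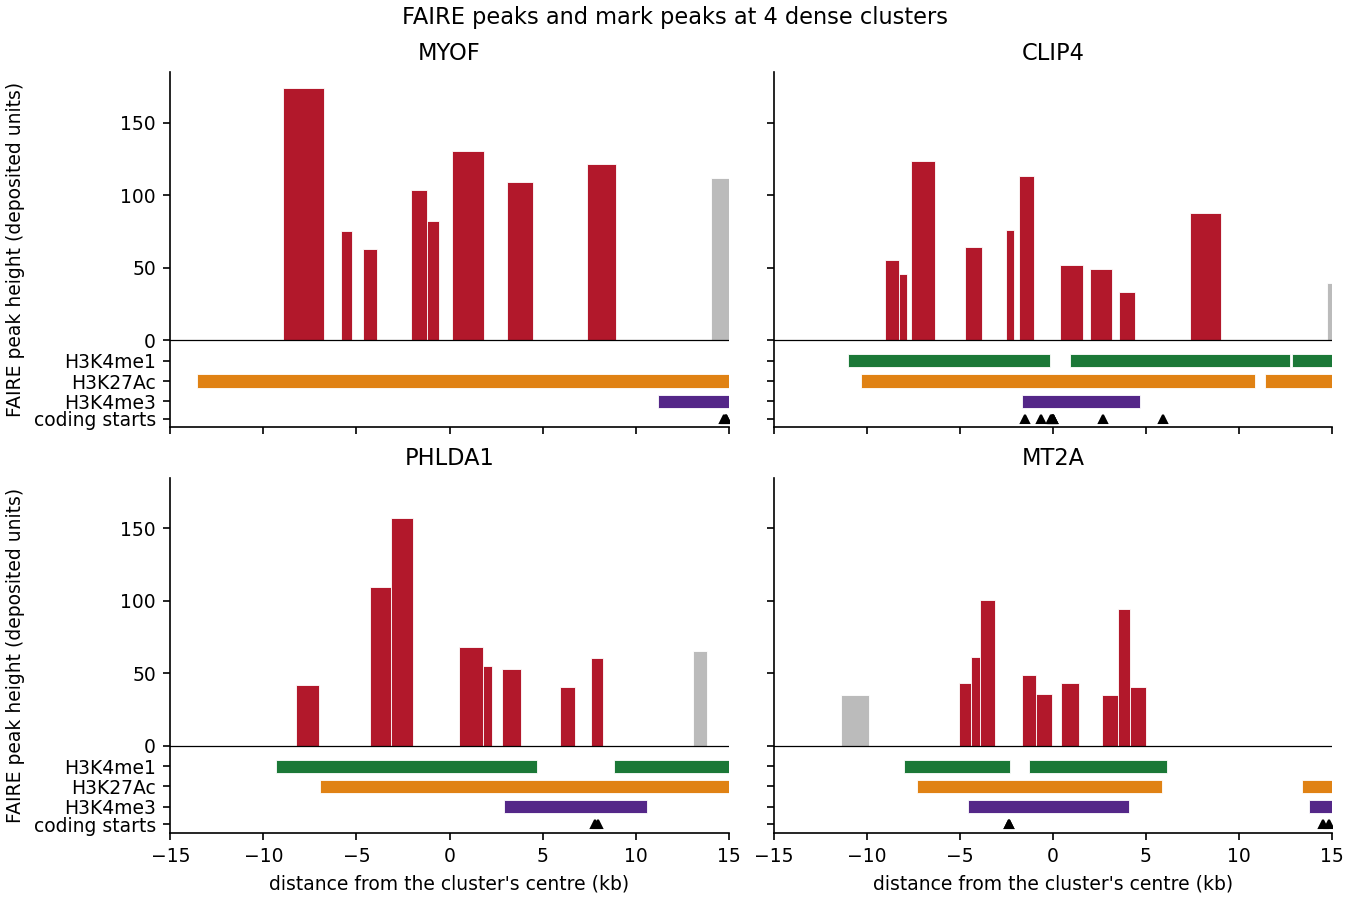
Red bars are the FAIRE peaks of 4 clusters at their deposited heights and grey bars are FAIRE peaks outside the cluster, by distance from the cluster's centre in kb. Coloured bars below show the H3K4me1, H3K27Ac and H3K4me3 peaks, drawn to 15 kb on each side, and triangles show coding start sites. H3K27Ac reached across each of the 4 clusters but for the left end of PHLDA1. MYOF had no called H3K4me1 peak, and H3K4me3 lay around the coding starts.

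The 5 clusters with the tallest peaks reached 217 in UQCC1, an assembly factor of respiratory complex III, 198 in WFDC3, a protease-inhibitor-like gene (chr20:44407285-44412523), 197 in MIR100HG (chr11:122056696-122068812), 193 between genes 24098 bp from the start of DNAH5, an axonemal dynein gene (chr5:14032444-14039606), and 192 on chromosome 8. None of these 5 clusters contained a coding start or an H3K4me3 peak. The UQCC1 and WFDC3 clusters are both on chromosome 20, where the median height of all FAIRE peaks was 77.1, against 61.9 over chromosomes 1 to 22. How far the chromosome's general level sets these heights was not tested.

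Almost every clustered peak lay under H3K27Ac. Of the 1887 clustered peaks, 1829 shared a base with an H3K27Ac peak, or 96.9% (96 to 97.6%), where all FAIRE peaks gave 72.3%. For H3K4me1 the share was 76.3% (74.3 to 78.1%) against 55.9%, and for H3K4me3 it was 23.8% (21.9 to 25.8%) against 21.3%. Groups of 2 or 3 gave 88.7%, 71.5% and 23.7% in the same order. Any of the 3 marks was present at 98.6% of clustered peaks and at 81.1% of all peaks. Peaks of a cluster often share 1 broad mark peak, so they are not independent counts, and whole clusters were counted as well. H3K27Ac reached 419 of the 420 clusters (99.8%), 93.6% of groups of 2 or 3 and 68.7% of all groups and lone peaks. It lay at all the peaks of 377 clusters (89.8%), against 82.4% of groups of 2 or 3, and covered 91.6% of bases, against 81.6%. A single H3K27Ac peak spanned 266 clusters from end to end (63.3%, 58.6 to 67.8%), no more than the 66.5% of the shorter groups of 2 or 3.

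Height was the first thing to hold fixed, since taller lone peaks had more of each mark. In the lowest of 4 equal height classes, 93.6% of clustered peaks (320 of 342) carried H3K27Ac, against 79.4% in groups of 2 or 3 and 42% of lone peaks. In the highest class the shares were 99.4%, 96.6% and 88.6%. The separation was thus widest among low peaks. For H3K4me1 the lowest class gave 74.3%, 63.2% and 29%, but in the highest class clustered peaks (74.7%, 71.1 to 77.9%) were no higher than those in groups of 2 or 3 (77.4%, 76.1 to 78.7%). H3K4me3 was at 29.8% of clustered and 17.8% of all peaks in the lowest class but 21.1% (18.1 to 24.5%) and 23.7% in the highest.

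**Figure D3:**
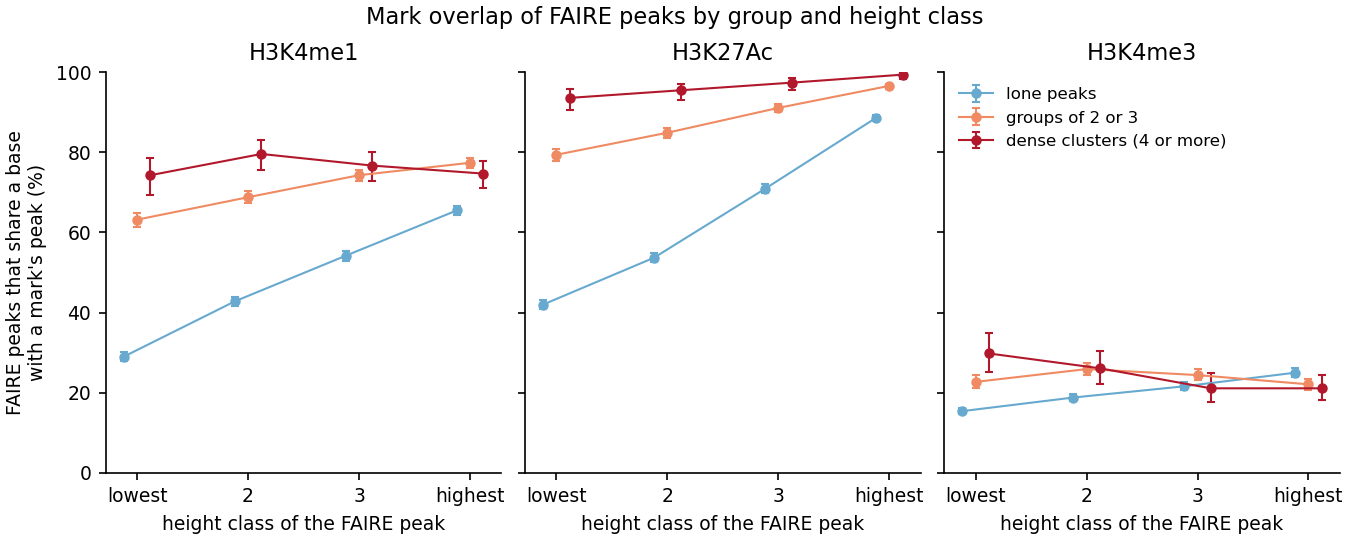
Percent of FAIRE peaks that share a base with a peak of each mark, for lone peaks, groups of 2 or 3 and dense clusters, in 4 classes of equal size by height. Bars are 95% Wilson intervals over peaks. Clustered peaks stayed between 93.6% and 99.4% for H3K27Ac in every class, while lone peaks rose from 42% to 88.6%.

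Distance from promoters was the second. Only 230 clustered peaks (12.2%, 10.8 to 13.7%) lay within 1 kb of a coding start, fewer than the 16.3% of all peaks. Farther out, 96.6% of clustered peaks had H3K27Ac and 79.7% H3K4me1, against 56.8% and 52.8% of lone peaks and 86.9% and 79% in groups of 2 or 3. H3K4me3 away from coding starts was found at 15.8% of clustered peaks (14.1 to 17.6%), 11.8% in groups of 2 or 3 and 6.66% of lone peaks. Within 1 kb of a start the order of H3K4me1 was the clearest, with 51.3% (44.9 to 57.7%) of clustered, 32.5% of paired or tripled and 17.8% of lone peaks. In a window of 7000 bp around each peak, H3K27Ac covered a mean of 80.7% for clustered peaks, 57.7% for groups of 2 or 3 and 27.7% for lone peaks.

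Among whole clusters, 218 (51.9%) had H3K4me1 and H3K27Ac without H3K4me3, against 57% of groups of 2 or 3 and 37.9% of all groups and lone peaks. All 3 marks were at 120 (28.6%), against 14.5% and 6.09%, and longer spans have more room for them. H3K27Ac with H3K4me3 was at 46 (11%, against 14.5% and 14.8%) and H3K27Ac alone at 35 (8.33%, against 7.54% and 9.85%). No cluster was free of marks, while 2.51% of groups of 2 or 3 and 26.6% of lone peaks were, over shorter spans. The only cluster without H3K27Ac, named after its values were seen (chr4:155003957-155010740) held 4 peaks with heights from 52.8 to 71.9, and H3K4me1 covered 98.3% of it. It lies 297114 bp from the start of SFRP2, a secreted Wnt antagonist gene.

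H3K4me1 had no called peak at 81 clusters. Its list had a median score of 115, against 594 for H3K27Ac, and signal below the call cannot be read from it. Here and elsewhere, clusters without H3K4me1 are those with no called peak. The 81 clusters had a median of 15810 bp to the nearest H3K4me1 peak. Of them, 33 (40.7%) held a coding start, against 69 (20.4%) of the 339 clusters with H3K4me1. An H3K27Ac peak of 20 kb or more shared a base with 15 of the 81 (18.5%) and with 9 of the 339 (2.65%). The MYOF cluster of 8 peaks and the UQCC1, LINC-PINT and chromosome 14 clusters were all among those 15. Over 1 kb from coding starts, the share of clustered peaks with H3K4me1 was 85.9% (82.4 to 88.8%) under H3K27Ac peaks of 10 to 20 kb and 32% (24.5 to 40.6%) under those of 20 kb or more. In groups of 2 or 3 the corresponding shares were 67.7% and 27.7%.

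**Figure D4:**
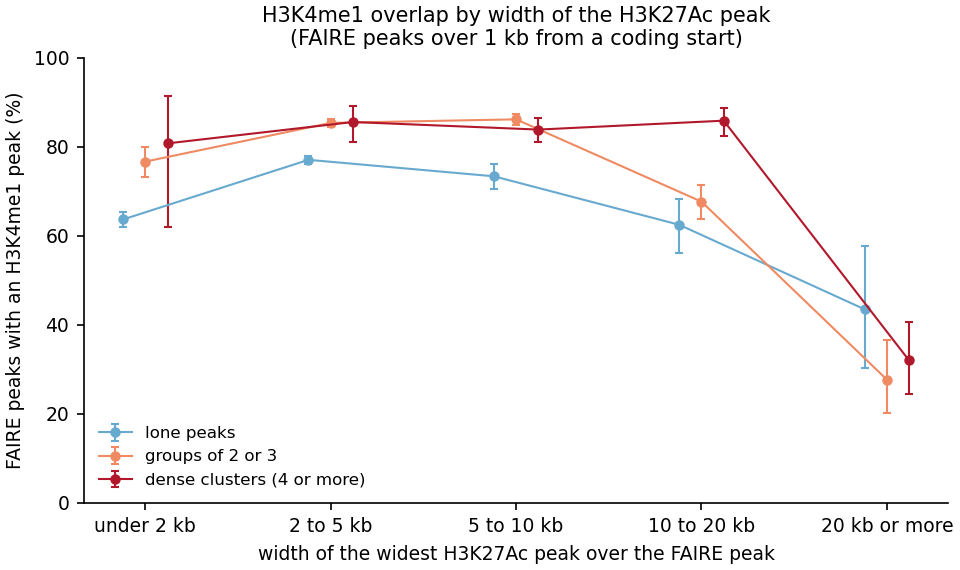
Percent of FAIRE peaks over 1 kb from a coding start that share a base with an H3K4me1 peak, by the width of the widest H3K27Ac peak over them, for lone peaks, groups of 2 or 3 and dense clusters. Bars are 95% Wilson intervals. The clustered peaks stayed between 80.8% and 85.9% up to 20 kb and stood at 32% beyond it.

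Read from the side of H3K27Ac, wider peaks more often shared a base with a dense cluster. Of the 51 H3K27Ac peaks of 20 kb or more, 22 touched one (43.1%, 30.5 to 56.7%). Of the 462 from 10 to 20 kb 108 did (23.4%), and of the 23804 from 2 to 5 kb 178 did (0.748%). The density of FAIRE peaks did not rise with width. It was 2.3 per 10 kb in the widest class and 2.74 from 2 to 5 kb.

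A coding start lay inside 102 of the 420 clusters (24.3%, 20.4 to 28.6%), where 14.9% of all groups and lone peaks and 20% of groups of 2 or 3 had one. With the starts of all annotated transcripts, coding or not, the shares were 46%, 20.9% and 29.6%. Longer spans hold more starts, and the part of length in this order was not tested. Of these 102 clusters, 87 had H3K4me3, and over all 102 it covered a median of 46% of the span. Clusters without a coding start had H3K4me3 in 79 of 318 cases (24.8%). Peaks with and without H3K4me3 in the same cluster were alike in height, at medians of 66.4 and 67.9 over the 134 clusters that held both kinds. The nearest coding start was a median of 22796 bp from the cluster's centre, and 134 clusters (31.9%) were over 50 kb from any, against 35.3% of all groups and lone peaks. By position, 194 centres were in introns of coding genes (46.2%, all groups and lone peaks 45%), 29 in coding-gene exons (6.9%, 7.1%), 79 in lncRNA genes (18.8%, 14.3%) and 118 outside both (28.1%, 33.7%).

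Coding genes with a dense cluster in the body numbered 277 of 19229 (1.44%), and 545 (2.83%) had one within 50 kb of a start. Genes with a cluster inside were longer, with a median of 83.2 kb against 27.2 kb, and the part of length was not tested. Only RUNX1, a transcription factor gene of 1217 kb in this annotation, held 3 clusters. One of them (chr21:36419454-36424999) has a RUNX1 coding start inside and 4 of its 5 peaks under H3K4me3, and the others are intronic with no H3K4me3.

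Each of 15 further genes held 2 clusters. ITGB1, the beta chain shared by many integrins, had 1 in the body (chr10:33268918-33275891) and 1 across the 5′ end of its annotated body (chr10:33293735-33300153), both wholly under H3K27Ac and H3K4me1. MYOF had a cluster of 5 peaks (chr10:95135703-95144351) besides that of 8, and H3K4me1 covered 100% of the span with 5 peaks. RTN4, the reticulon gene that encodes Nogo, had coding starts inside both of its clusters, of which only the one at chr2:55277301-55283643 had H3K4me3. SYNJ2, an inositol phosphatase gene, had a pair 4529 bp apart with no H3K4me1 (chr6:158478035-158493983). ENC1, an actin-binding Kelch gene, had a pair 4012 bp apart. MICAL2, an actin-oxidizing enzyme gene, had 2 clusters of 5 peaks without H3K4me1. The rest included UQCC1, HSF2BP (a meiotic recombination gene), ELOVL6 (a fatty acid elongase) and, outside the rule for named genes, CUBN (the endocytic receptor cubilin), STEAP1B (whose second cluster is that at IL6), ATXN1, DST (the cytoskeletal linker dystonin) and DLGAP1.

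Clusters also neighboured each other. Of 398 neighbouring pairs, 14 were under 20 kb apart, and those named here were picked after their values were seen. They are named by the nearest coding start, which was up to 152091 bp away. The closest pair, at 3028 bp, was that of DCBLD2, a neuropilin-like receptor gene (chr3:98680453-98700854). Others were those of ERRFI1, an inhibitor of EGFR signalling (chr1:8149344-8182667), ITGB6, an epithelial integrin chain (chr2:161061783-161086681), TGFB2, a TGF-beta ligand gene (chr1:218646092-218673625), and LIF, a cytokine gene (chr22:30598327-30625176).

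The cell line's label was checked against marker genes, by peaks within 1 kb of a coding start. H3K4me3 was present at 7 of 8 mesenchymal or basal breast cancer markers, including VIM, AXL and ZEB1, with SPARC the exception, at 0 of 5 blood markers and 0 of 3 muscle markers, against 66.1% of all coding genes. Among epithelial adhesion genes it was present at 5 of 9, and CDH1, which encodes E-cadherin, had no peak of any list. Luminal markers had H3K4me3 at 9 of 10, H3K27Ac at 7 and FAIRE at 5, with neither of the last at the hormone receptor genes ESR1 and PGR. H3K4me3 was also at KDR among 3 endothelial markers matched, at GFAP among 3 neural ones and at APOA1 among 4 liver ones. Dense clusters were inside CD44 and FN1 of the mesenchymal list, inside EPCAM of the epithelial list, and inside no luminal, blood, endothelial, neural, liver or muscle marker. With 1.44% of all coding genes holding one, counts of 0 in lists this short do not set those markers apart.

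Counts were made over 11 gene lists, 10 of pathways studied in this cell type and the last of ribosomal proteins. The lists were chosen with earlier results of these data known, so their shares are a description only. Of their 150 genes, 16 (10.7%) had a dense cluster in the body and 23 (15.3%) within 50 kb of a start. All coding genes gave 1.44% and 2.83%, and coding genes with H3K4me3 at a start gave 1.95% and 3.4%. The listed genes had a median length of 25.4 kb and the 16 with a cluster in the body 75.5 kb, and the part of length was not tested. Among 12 AP-1 and related genes, 2 had one in the body. At FOSL1, which encodes the AP-1 subunit FRA1, 5 peaks crossed the start (chr11:65667568-65679725) and H3K27Ac covered the whole span in a peak of 34918 bp. At MAFK, a small Maf gene, all 4 peaks (chr7:1571755-1578229) carried H3K4me3.

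Of 10 receptor kinase genes, EGFR and EPHA2 held a cluster. The one in EGFR (chr7:55195158-55202035) is intronic, with heights of 50.5, 52.4, 173 and 148 and full cover by H3K27Ac and H3K4me1. The one in EPHA2 had 6 peaks under 1 H3K27Ac peak of 23267 bp (chr1:16465230-16473213). Of 13 YAP and TEAD genes, WWTR1, which encodes the YAP partner TAZ, held 6 peaks (chr3:149290425-149300257). In the TGF-beta list of 15, TGFB2 had 4 peaks across its start (chr1:218517776-218525510), wholly under H3K4me3, and SMAD3, which encodes a signal transducer of the pathway, had 4 intronic peaks (chr15:67436506-67443382).

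Among 16 adhesion and matrix genes, CD44 and ITGB1 held clusters. CD44, a hyaluronan receptor gene, had 4 peaks across its start (chr11:35160449-35167595) without H3K4me1. FN1, the fibronectin gene, was the 1 of 16 genes of the mesenchymal list. Its 4 peaks (chr2:216295405-216305297) had heights from 23.5 to 54.7, with H3K27Ac over 54.6% of the span. FAIRE peaks of chromosome 2 had a median height of 48.7, and 53.7 in its clusters. Of 16 NF-kB and cytokine genes, IL6 alone had a cluster inside (chr7:22765740-22771483), and 5 had one within 50 kb of a start, namely RELA, BIRC3, IL6, CXCL2 and LIF. The RELA cluster holds the start of KAT5 and the BIRC3 one that of BIRC2, so nearness does not assign them.

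Of 16 ERK feedback genes, PHLDA1 and IER2 had a cluster in the body and DUSP6, which encodes a phosphatase of ERK, had one 17498 bp from its start. RUNX1, ETS2 and ELK3 made 3 of the 9 RUNX and ETS factor genes matched. The ELK3 cluster (chr12:96588749-96593137) had heights of 59.8, 48.2, 112 and 102. No urokinase and proteolysis gene of 11 matched and no ribosomal protein gene of 16 held a cluster, which lists of this length would mostly give at the 1.44% of all coding genes. One of the 16, RPLP0, had a cluster within 50 kb, inside the neighbouring PXN, the paxillin gene.

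AP-1 letters were in 700 of the 1887 middle windows of 300 bases (37.1%, 34.9 to 39.3%), against 39.2% of all FAIRE peaks. Over 1 kb from coding starts the share was 38.7% (36.4 to 41.1%), under the 44.4% (43.8 to 45%) of lone peaks and the 43.2% in groups of 2 or 3. With several peaks each, 359 clusters (85.5%) had AP-1 letters in at least 1 window, 220 (52.4%) in 2 or more and 8 in every window. Groups of 2 or 3, with fewer windows, had 65.1% and 19.9% for at least 1 and for 2 or more. Away from starts, GC boxes (GGGCGG) were in 6.64% (5.54 to 7.94%) of clustered and 5.11% (4.84 to 5.4%) of lone windows. The remaining motifs there lay close to lone peaks, namely TEAD (GGAATG, 23.7% and 22.7%), RUNX (TGTGGT, 27.1% and 26.9%), NFY (CCAAT, 35.5% and 37.3%), forkhead (TGTTTAC, 5.73% and 6.64%), ETS (CCGGAA, 4.1% and 3.86%) and the E-box (CACGTG, 4.04% and 3.77%), all read on both strands.

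Near coding starts the composition differed. The 230 clustered windows there had a median GC content of 50.3% and a ratio of observed to expected CpG of 0.424, against 56.3% and 0.721 for lone peaks. GC boxes were in 30% (24.4 to 36.2%) against 47.1%, ETS letters in 13% (9.29 to 18%) against 25.3%, and AP-1 letters in 25.7% (20.4 to 31.7%) against 13.9%. Groups of 2 or 3 lay between, at 38.5%, 18% and 19.2%. A cluster can hold peaks beside a start as well as on it, and the distance within the 1 kb was not separated.

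**Figure D5:**
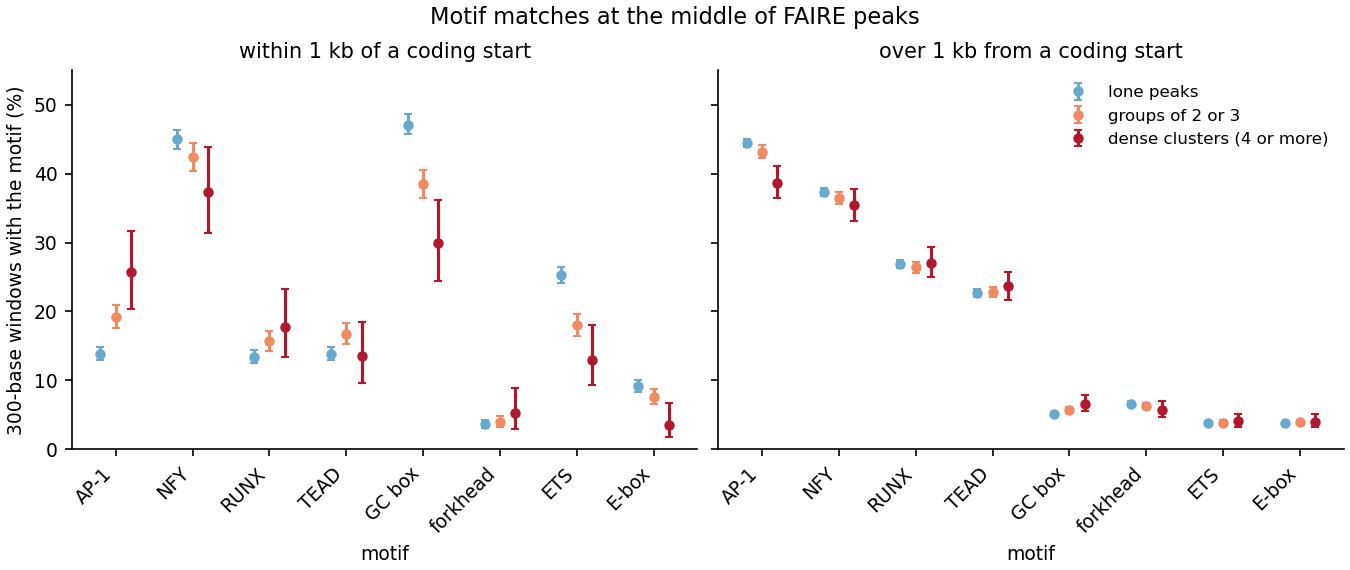
Percent of 300-base windows at the middle of FAIRE peaks that hold each motif on either strand, for lone peaks, groups of 2 or 3 and dense clusters, within 1 kb of a coding start (left) and farther out (right). Bars are 95% Wilson intervals. On the left, GC boxes were in 30% of clustered and 47.1% of lone windows and AP-1 letters in 25.7% and 13.9%; on the right AP-1 letters were in 38.7% and 44.4%.

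Chromosomes differed in how many of their peaks were clustered. The share was highest on chromosome 21 (42 of 547 peaks, 7.68%, 5.73 to 10.2%) and on chromosome 20 (78 of 1134, 6.88%, 5.55 to 8.5%), and lowest on chromosome 13 (32 of 1444, 2.22%, 1.57 to 3.11%). The 32 peaks on chromosome 13 came from 7 clusters. Peaks of a cluster enter together by the rule, so these intervals, like that of the share over chromosomes 1 to 22, treat linked peaks as independent and are too narrow. Chromosome 21, with RUNX1, ETS2 and HSF2BP, had 9 clusters. Chromosome 20 had 17, or 0.27 per Mb against 0.146 over chromosomes 1 to 22, and chromosome 1 the most, at 44.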

How the data were processed

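MDAMB231 cells were profiled by FAIRE-seq and by ChIP-seq of 3 histone marks, and the authors aligned reads with BWA to GRCh37/hg19, removed duplicates and kept well-mapped reads with Samtools. FAIRE peaks, split into sub-peaks, were called against input with FindPeaks, and the deposited signal is the height of each peak. Mark peaks were called with MACS against input, and the deposited score is minus 10 times the log10 of the p-value, from 50 (p 1e-05) upwards, with many H3K27Ac and H3K4me3 peaks at 3100. Each assay has 1 list from 2 libraries, and read depth is not given in the deposited lists. Lists were joined and compared with Python 3.11.15, numpy 2.4.6, pandas 2.3.3 and pysam 0.24.0. Overlap meant 1 shared base, calls were tested beside bedtools 2.31.1 on 3000 simulated intervals (0 differed), and shares have 95% Wilson intervals from scipy 1.17.1. Genes and starts of coding transcripts are from GENCODE v44lift37. Height classes are 4 sets of equal size among the 44702 heights. No test was made, since there is no replicate error. Named clusters were taken from the 10 with most peaks (ties by span), the 5 longest, the 5 with the tallest peak, those in genes with most clusters and those in or near genes of the lists. The members and lists were chosen with earlier results of these data known. Alternatives changed the gap, the number of peaks, heights, overlap rule, MACS p and start sites.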

Additional observations from a re-analysis of the deposited data

Results flagged for a closer look

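Chromosome X was outside the comparisons, and the same joining found 16 dense clusters there. They held 70 of 1834 FAIRE peaks (3.82%), of which 94.3% shared a base with H3K27Ac, 65.7% with H3K4me1 and 21.4% with H3K4me3. The most peaks in one were 6, over 8778 bp at RPS4X, a ribosomal protein gene, and PIN4 (chrX:71488782-71497559). The tallest peak, at 127, was in TMEM164 (chrX:109329092-109333642). Others lay in MSN, which encodes the membrane-cytoskeleton linker moesin (chrX:64821385-64827321), and at SAT1, a polyamine-acetylating enzyme gene (chrX:23797020-23803076). GAB3 held 2 clusters, of 5 and 4 peaks.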

How the results depend on the processing

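The number of clusters depends on the rule. It was 420, and was 190 with gaps of 1500 bp, 969 with 6000 bp, 1678 with 3 or more peaks, 125 with 5 or more, 107 with peaks at or above the median height only, 129 with abutting peaks merged and 127 with peaks within 150 bp merged. The share of FAIRE peaks in clusters, 4.22%, was 1.84%, 10.2%, 12.7%, 1.58%, 2.08%, 1.38% and 1.36% in the same order.

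The shares at clustered peaks moved less. For H3K27Ac, 96.9% became 96% with MACS p at or under 1e-10 (all peaks 66.9%) and 98.5% at or above the median height (all such peaks 85.4%). It was 98.9% with gaps of 1500 bp and 94% with abutting peaks merged. For H3K4me1, 76.3% became 65.4% with the stricter p (all peaks 40.8%) and 78.2% with gaps of 1500 bp. It was 73.3% with 5 or more peaks and 66.8% with abutting peaks merged. For H3K4me3, 23.8% became 21.7% by the peak's centre, 21.1% at or above the median height (all such peaks 23.1%), 25.8% with gaps of 1500 bp and 21.9% with abutting peaks merged. The H3K27Ac share of bases, 91.6%, was 96.3% for FAIRE peak bases only and 97.8% with gaps of 1500 bp. Clusters with a coding start, 24.3%, were 17.9% by the most upstream start, 46% by all annotated transcripts (all groups and lone peaks 11.3% and 20.9%), 20% with gaps of 1500 bp and 28.7% with abutting peaks merged. The last setting was chosen after seeing the data for all but the first pair of results. Fewer peaks or clusters enter most of these alternatives, and the cause of the other shifts was not tested. The remaining 13 values stayed within 1.5 times the count or within the 95% interval. All FAIRE peaks with abutting ones merged gave 70.1% for H3K27Ac, 54.3% for H3K4me1 and 20.7% for H3K4me3. No paired analysis was possible because the 2 libraries of an assay are not separate in the files.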

Other observations

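One cluster outside the naming rule, picked after its values were seen, had 7 peaks over 12519 bp at the lncRNA gene MALAT1 (chr11:65254509-65267027), with heights from 64.5 to 187. H3K27Ac spanned it in 1 peak of 25136 bp whose score was 530, H3K4me3 covered 26% and H3K4me1 had no peak there.

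Also picked in this way, the 2 clusters in DLGAP1, a postsynaptic scaffold gene (chr18:3593087-3606871), had 5 peaks each. All 10 carried H3K4me3, which covered 96.2% and 96.4% of the spans, although no coding start lay inside either and the lncRNA genes DLGAP1-AS1 and DLGAP1-AS2 did.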
